A study of Homo sapiens with 6 samples.

Results

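YAP1 and WWTR1 (TAZ), the transcriptional coactivators that the Hippo pathway restrains, the DNA-binding factor TEAD1 and 7 genes known as targets or regulators of that axis are described here across 6 RNA-seq libraries. The 7 are ANKRD1, CYR61, CTGF, AMOTL2, AJUBA, LATS2 and AXL, of which CYR61 and CTGF are listed under the older symbols of CCN1 and CCN2. They are 10 of the 19912 rows of the mRNA table and were picked by symbol with their difference between the groups already known, so that difference is given as a description: values, log2 changes and their intervals, with no p-value and with nothing concluded from a threshold. Expression was measured in PANC-1, a human pancreatic ductal carcinoma cell line, in a form labelled gemcitabine-resistant, gemcitabine being a nucleoside drug used against this cancer. The labels put 3 libraries under SRSF3 knockdown and 3 under control, and both groups carry the resistance label. The treatment is given as shSRSF3 or ctrl; the labels do not say how the cells were transduced, whether 1 clone or a pool was used, or whether the replicates came from separate cultures, so p-values measure the spread between these libraries, which may be technical.

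In the Hippo pathway the kinases STK3 and STK4, with the scaffold SAV1, activate LATS1 and LATS2, which phosphorylate YAP1 and WWTR1 and keep them in the cytoplasm. Unphosphorylated YAP1 and WWTR1 enter the nucleus and bind TEAD factors on DNA, often next to AP-1 factors. The targets include the secreted matricellular proteins CYR61 and CTGF, the ankyrin repeat protein ANKRD1, and AMOTL2 and LATS2, which act back on the pathway as inhibitors. AJUBA, a LIM protein, binds and inhibits LATS kinases, and AXL is a receptor tyrosine kinase reported as a YAP target in several carcinomas. The activity of YAP1 and WWTR1 is set largely by phosphorylation and location, which RNA levels do not show.

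SRSF3, the serine/arginine-rich splicing factor named by the labels, stood at 36.9, 37.1 and 38.6 FPKM in the libraries labelled SRSF3 knockdown 1 to 3, against 37.0, 39.6 and 39.2 FPKM in control libraries 1 to 3. FPKM counts fragments per kilobase of a gene relative to the library total. The log2 change was -0.04 (95% interval -0.15 to 0.07, limma adjusted p = 0.612, where 0.05 is the threshold used for all genes), so no fall of SRSF3 RNA was detected under the knockdown label. Every direction below is therefore that of libraries carrying the label. Library totals recovered from the FPKM values ran from 24903382 to 27300517 fragments in the libraries labelled SRSF3 knockdown and from 24558238 to 27351642 in control libraries. Summed over the mRNA table, FPKM came to 336887, 308101 and 287148 in the libraries labelled SRSF3 knockdown and between 275359 and 285701 in controls. Every library of the knockdown label thus lay above every control, library 1 farthest. Leaving out library 1 does not remove this offset between the groups, and the main fit was not rescaled for it. Epithelial markers were present, with KRT8 at 1760 ± 150.2 and 1613 ± 46.8 FPKM (SD, n = 3 each) under the knockdown label and in controls and CDH1 at 75.5 ± 4.06 and 82.3 ± 1.29 FPKM, although KRT7 lay below 0.5 FPKM.

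Short promoter sequences are shown for 3 genes that were higher under the knockdown label and whose stretch before the start holds GGAATG, the core of the TEAD binding motif, or its reverse complement CATTCC. They are the 250 bases before the transcription start in RefSeq on GRCh38.p14, written 5′ to 3′ on the gene's strand with the motif in capitals. ANKRD1 lies on the minus strand at chr10:90921088-90921337, CTGF on the minus strand at chr6:131951373-131951622, and the downstream start of AMOTL2 on the minus strand at chr3:134374448-134374697.
ANKRD1: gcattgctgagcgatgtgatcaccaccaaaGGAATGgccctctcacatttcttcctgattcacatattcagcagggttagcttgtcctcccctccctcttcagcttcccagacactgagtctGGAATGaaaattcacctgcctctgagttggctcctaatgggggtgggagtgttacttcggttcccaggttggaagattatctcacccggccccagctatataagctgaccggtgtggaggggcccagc
CTGF: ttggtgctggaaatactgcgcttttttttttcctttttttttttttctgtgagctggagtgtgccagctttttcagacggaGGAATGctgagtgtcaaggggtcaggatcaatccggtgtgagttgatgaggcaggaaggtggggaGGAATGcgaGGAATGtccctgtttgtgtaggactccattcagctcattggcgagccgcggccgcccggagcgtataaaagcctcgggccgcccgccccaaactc
AMOTL2: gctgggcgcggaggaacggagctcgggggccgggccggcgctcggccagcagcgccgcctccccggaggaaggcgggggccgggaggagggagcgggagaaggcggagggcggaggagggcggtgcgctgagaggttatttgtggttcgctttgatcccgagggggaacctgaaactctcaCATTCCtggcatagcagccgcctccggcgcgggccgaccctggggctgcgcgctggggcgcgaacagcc

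In CTGF the motif starts 169, 104 and 95 bases before the transcription start, in ANKRD1 220 and 128 bases before it, and in AMOTL2 69 bases before it. RefSeq windows of 300 bases, 250 before and 50 after the start, were found for 8 of the 10 genes, with 12 windows in all; CYR61 and TEAD1 had none. GGAATG on either strand was in 7 of the 12 windows, a window each of YAP1, ANKRD1, CTGF, AMOTL2, AJUBA, LATS2 and AXL, and in neither window of WWTR1. Over all 35116 RefSeq windows, 14.03% hold the motif at least 1 time, 1.373% at least 2 times and 0.128% at least 3 times. TGANTCA, a loose form of the AP-1 motif that allows any middle base, was in 1 window, against 7.71% of all windows. This was the window of ANKRD1, 195 bases before the start, where the middle base is T. The CArG box bound by SRF was in 0 of the 12, against 1.29% of all windows. These matches describe the sequence; binding was not measured.

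The coactivators differed little between the groups. YAP1 was read at 22.6, 23.6 and 26.7 FPKM in libraries 1 to 3 labelled SRSF3 knockdown, against 23.5, 24.2 and 24.7 FPKM in control libraries 1 to 3. The control values all lay inside the range of the knockdown label, and the means were 24.3 ± 2.09 and 24.1 ± 0.637 FPKM in the libraries labelled knockdown and in controls (SD, n = 3). The log2 change of YAP1, on the log2(FPKM + 1) scale used throughout, was 0.01 (SE 0.06, 95% interval -0.13 to 0.14), and its sign depended on the scaling and on single libraries. WWTR1 was much lower in level, at 1.05, 0.921 and 0.997 FPKM under the knockdown label, against 0.944, 0.865 and 0.7996 FPKM in controls. These groups overlapped, and the log2 change was 0.09 (95% interval -0.05 to 0.24) from 193 to 229 fragments per library labelled knockdown and 184 to 195 per control library. On those fragment numbers, by limma voom, it was 0.16 (interval -0.09 to 0.42). Per length, YAP1 RNA was 24.6 ± 2.78 times that of WWTR1 under the knockdown label and 27.9 ± 3.04 times in controls, so YAP1 was the main coactivator RNA in both groups.

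TEAD1 stood at 17.7, 19.2 and 21.4 FPKM in the libraries labelled SRSF3 knockdown, against 19.9, 20.2 and 21.0 FPKM in controls. The groups overlapped, with a log2 change of -0.07 (SE 0.07, 95% interval -0.21 to 0.08). TEAD1 and YAP1 shared their order over the libraries labelled knockdown, each lowest in library 1 and highest in library 3, and were the closest pair among the 10 genes. Their log2 values, set to each gene's control mean, differed by a root mean square of 0.0546 over the 6 libraries. Over those 3 libraries the summed FPKM ran the other way, highest in library 1; its part in this spread was not tested. The coefficient of variation was 8.62% under the knockdown label and 2.64% in controls for YAP1, and 9.41% and 2.86% for TEAD1.

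TEAD1 was not the most abundant TEAD. TEAD4 gave 52.7 ± 2.22% of the summed FPKM of the 4 TEAD genes under the knockdown label and 49.4 ± 1.05% in controls. TEAD1 gave 31.5 ± 3.42% and 35.2 ± 0.859% in the libraries labelled knockdown and in controls, TEAD3 11.97 ± 1.43% and 12.2 ± 0.0690%, and TEAD2 3.82 ± 0.0732% and 3.24 ± 0.128%. The order TEAD4, TEAD1, TEAD3, TEAD2 held in each of the 6 libraries. TEAD4 itself stood at 34.1, 33.0 and 30.6 FPKM under the knockdown label, against 29.4, 27.9 and 28.5 FPKM in controls (log2 change 0.18, limma adjusted p = 0.0432). TEAD2 stood at 2.32, 2.41 and 2.35 FPKM, against 1.80, 1.86 and 1.96 FPKM in controls (log2 change 0.22, limma adjusted p = 0.0284). Both rose by that test, without overlap between the groups, but both calls depended on the processing and on single libraries. They were 2 of 5 tested genes among the other TEAD and the VGLL genes. Over all rows tested 16.8% passed, and the groups did not overlap for 37.9%. The TEAD4 call was lost under median scaling (adjusted p = 0.0638), quantile normalization (0.132), limma voom, a fit of fragment numbers recovered from the FPKM (0.0819) and no filter (0.0767). It was lost without libraries 1 and 2 of the knockdown label (0.0856 and 0.121) and without each control library (0.0777, 0.175 and 0.137). The TEAD2 call was lost under voom (0.104) and no filter (0.0579), without library 2 of the knockdown label (0.0889), and without each control library (0.0878, 0.105 and 0.0746). TEAD3 was read at 7.41 ± 1.00 FPKM under the knockdown label and 7.04 ± 0.122 FPKM in controls (log2 change 0.06, interval -0.12 to 0.24, limma adjusted p = 0.655). The TEAD cofactor genes VGLL3 and VGLL4 had log2 changes of -0.09 and -0.08 (limma adjusted p = 0.415 and 0.424), and VGLL1 and VGLL2 were listed at 0.

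**Figure D1:**
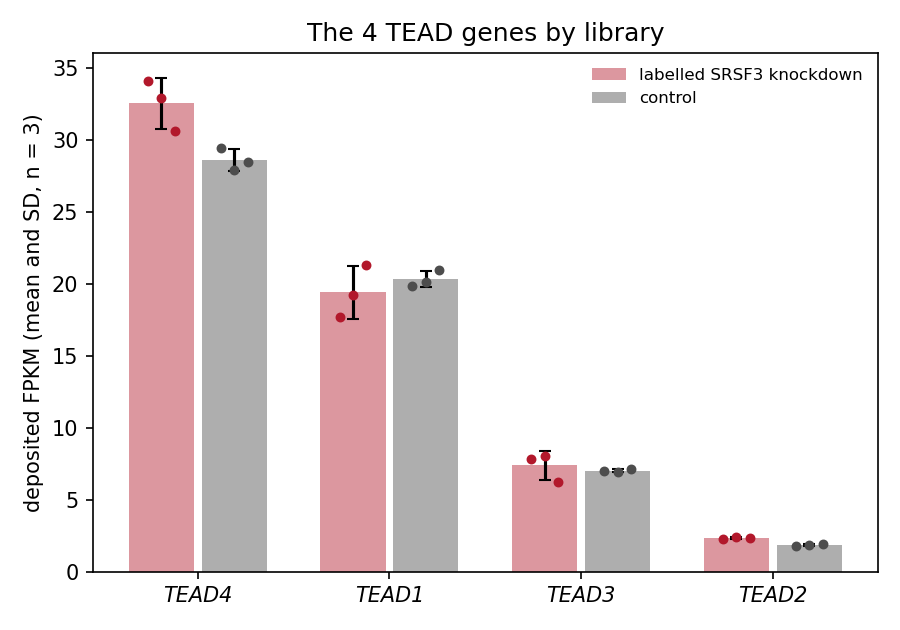
Deposited FPKM of the 4 TEAD genes on a linear axis from 0. Bars are group means with the SD (n = 3), libraries labelled SRSF3 knockdown on the left of each pair and controls on the right, and each point is a library. TEAD4 and TEAD1 lie far above TEAD3 and TEAD2 in all 6 libraries, and the groups overlap for TEAD1 and TEAD3.

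CYR61, a secreted protein of the CCN family that binds integrins, was higher under the knockdown label. It stood at 25.7, 24.4 and 25.3 FPKM in the libraries labelled SRSF3 knockdown, against 15.7, 16.4 and 14.7 FPKM in controls. The lowest value under the label lay above the highest control value, and the means were 25.1 ± 0.667 and 15.6 ± 0.871 FPKM, a ratio of 1.61. The log2 change was 0.66 (SE 0.05, 95% interval 0.54 to 0.77), from 1492 to 1695 fragments per library labelled knockdown and 948 to 1030 per control library. In rank, CYR61 was the 19th highest log2 change of the 10823 rows tested.

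CTGF, its paralogue in the CCN family, had 2.02, 2.16 and 2.49 FPKM under the knockdown label, against 1.65, 1.64 and 1.39 FPKM in controls. The groups did not overlap, and the means were 2.22 ± 0.241 and 1.56 ± 0.148 FPKM (ratio 1.42). The log2 change was 0.33 (SE 0.08, 95% interval 0.16 to 0.50); it was 0.48 by voom on the 121 to 159 fragments per library labelled knockdown and the 89 to 98 per control library. With 1 library left out the log2 change of CTGF lay between 0.27 and 0.38. CYR61 RNA was 11.4 ± 1.29 times that of CTGF under the knockdown label and 10.03 ± 0.524 times in controls. A further family member, CCN3 (listed as NOV), had means of 10.9 ± 0.639 FPKM under the label and 10.3 ± 0.917 FPKM in controls (log2 change 0.07, limma adjusted p = 0.482).

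ANKRD1, a nuclear and sarcomeric ankyrin repeat protein much used as a readout of YAP activity, had the largest difference of the 10. Its values were 4.52, 3.94 and 4.68 FPKM in the libraries labelled SRSF3 knockdown, against 1.67, 1.86 and 1.33 FPKM in controls. All 3 libraries of the knockdown label lay more than 2 times above every control library. The means were 4.38 ± 0.392 and 1.62 ± 0.267 FPKM, a ratio of 2.71. On the log2(FPKM + 1) scale, which understates the change of low genes, the log2 change was 1.04 (SE 0.09, 95% interval 0.85 to 1.23), the 5th highest of the 10823 rows tested. By voom on 194 to 253 fragments per library labelled knockdown and 72 to 94 per control library it was 1.42 (interval 1.08 to 1.76). ANKRD1 is abundant in heart and skeletal muscle. Of 6 smooth and cardiac muscle markers, MYH11, ACTC1, MYH6 and MYH7 were listed at 0 in all libraries, and the list summed to between 0.111 and 0.187 FPKM under the knockdown label and between 0.0838 and 0.1304 FPKM in controls. The cardiac marker TNNT2 had 0.124, 0.177 and 0.111 FPKM under the label, against 0.0673, 0.0539 and 0.101 FPKM in controls. No list of skeletal muscle markers was looked at. Fibroblast markers, whose cells carry CYR61, CTGF and AXL, were also near 0: COL1A2 and PDGFRA were listed at 0, and the 7 markers summed to between 0.304 and 0.423 FPKM and between 0.383 and 0.446 FPKM in the libraries labelled knockdown and in controls. In bulk RNA such as this, a change in the number of cells that express a gene and a change in RNA per cell cannot be told apart.

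**Figure D2:**
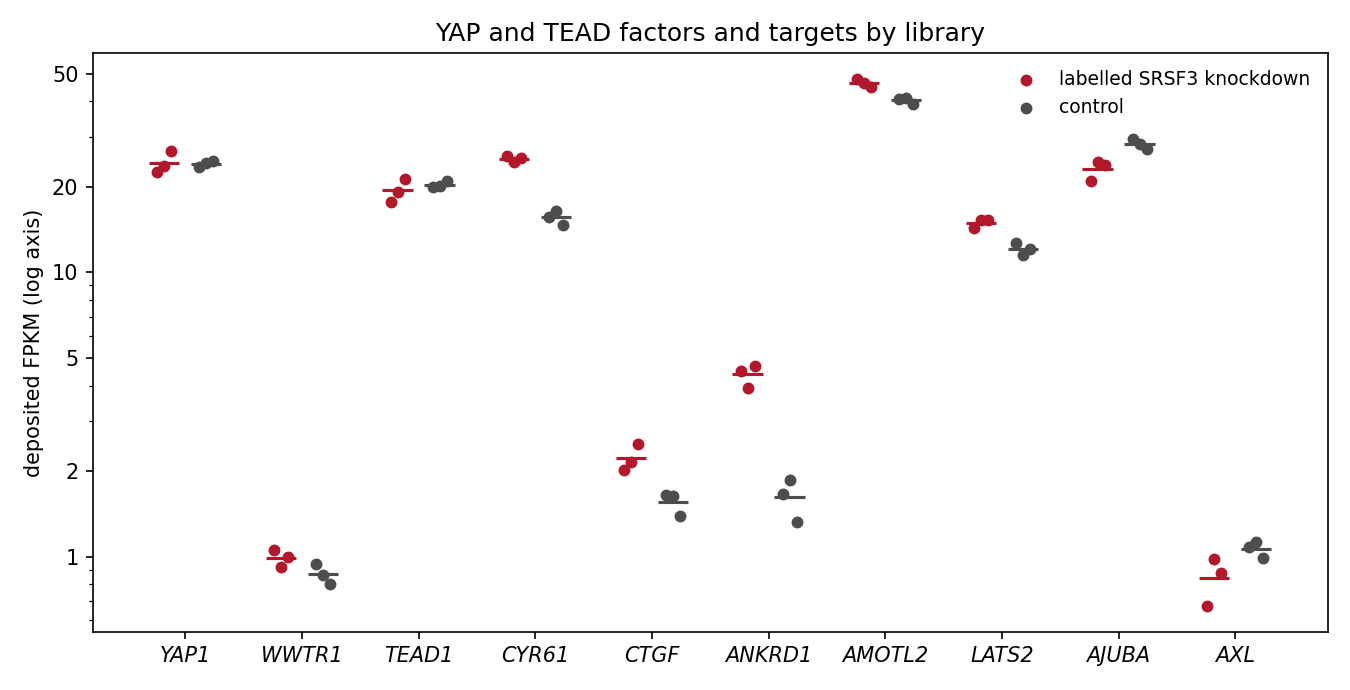
Deposited FPKM of the 10 genes on a log axis, with a point for each library (SRSF3 knockdown label on the left of each pair, control on the right) and a line at the group mean. The groups separate upward for ANKRD1, CYR61, CTGF, AMOTL2 and LATS2, downward for AJUBA and AXL, and overlap for YAP1, WWTR1 and TEAD1.

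AMOTL2 and LATS2, the targets that inhibit the pathway, were higher by smaller amounts. AMOTL2, an angiomotin that holds YAP1 at junctions, stood at 47.8, 46.5 and 45.0 FPKM in the libraries labelled SRSF3 knockdown, against 40.6, 41.0 and 39.3 FPKM in controls. The groups did not overlap, and the log2 change was 0.20 (SE 0.05, 95% interval 0.10 to 0.31). It lay between 0.18 and 0.22 with 1 library left out and was 0.11 under quantile normalization. LATS2, the kinase, had 14.3, 15.3 and 15.2 FPKM under the knockdown label, against 12.6, 11.5 and 12.1 FPKM in controls, again without overlap (log2 change 0.29, SE 0.05, 95% interval 0.17 to 0.40). LATS2 was 2.70 ± 0.119 times its paralogue LATS1 per length under the knockdown label and 2.02 ± 0.0735 times in controls. LATS1 had a mean of 5.55 ± 0.284 FPKM under the label and 5.99 ± 0.208 FPKM in controls (log2 change -0.09, interval -0.22 to 0.03, limma adjusted p = 0.283).

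AJUBA and AXL lay the other way. AJUBA was read at 20.96, 24.4 and 23.8 FPKM in the libraries labelled SRSF3 knockdown, against 29.5, 28.2 and 27.2 FPKM in controls. Every library of the knockdown label was below every control library, and the means were 23.1 ± 1.83 and 28.3 ± 1.13 FPKM (ratio 0.815). The log2 change was -0.29 (SE 0.06, 95% interval -0.43 to -0.15), and with 1 library left out it lay between -0.33 and -0.22. AXL had 0.674, 0.982 and 0.874 FPKM under the knockdown label, against 1.08, 1.13 and 0.993 FPKM in controls. The highest value under the label lay just below the lowest control value. The log2 change of AXL was -0.17 (SE 0.08, 95% interval -0.34 to -5.17e-05, which ends next to 0). It came from 89 to 126 fragments per library labelled knockdown and 137 to 149 per control library. Without library 1 of the knockdown label the change was -0.10. By voom on all 6 libraries it was -0.38 (interval -0.73 to -0.04).

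**Figure D3:**
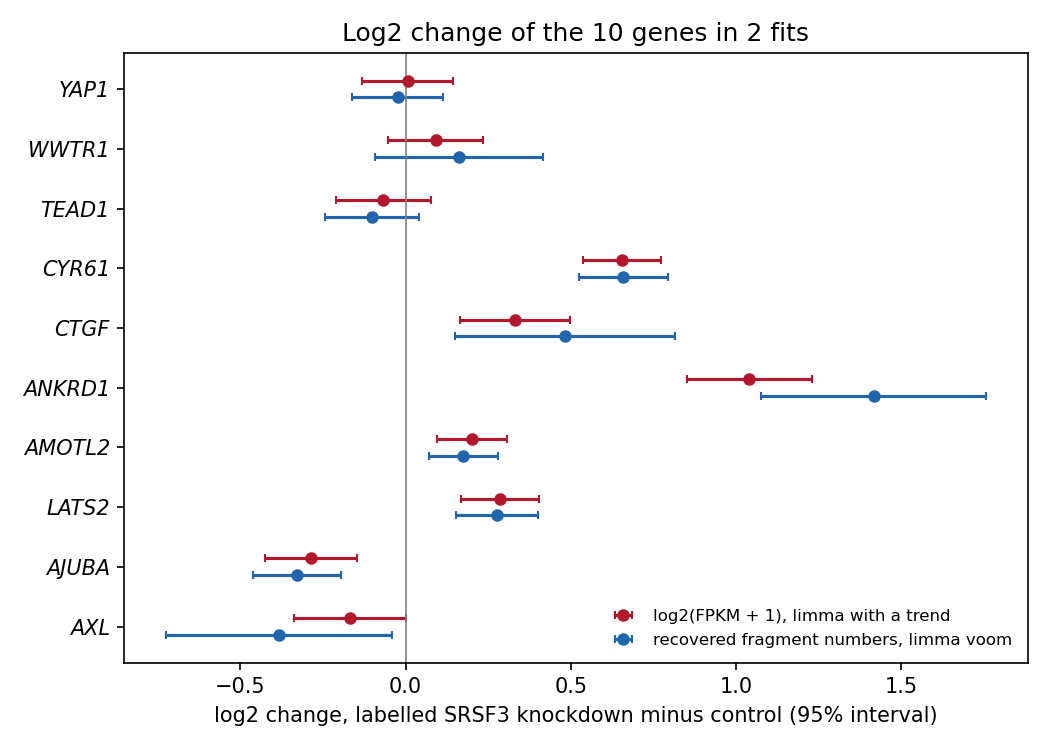
Log2 change with its 95% interval for each of the 10 genes, libraries labelled SRSF3 knockdown minus control, from limma on log2(FPKM + 1) (red) and from voom on recovered fragment numbers (blue). A value above 0 is higher under the knockdown label. On the FPKM scale ANKRD1 (1.04) and CYR61 (0.66) lie farthest above 0 and AJUBA (-0.29) farthest below it, and in both fits the intervals of YAP1, WWTR1 and TEAD1 span 0.

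Over the 10 genes, all of which passed the filter of a mean of at least 0.5 FPKM, 6 had an adjusted p under the threshold of 0.05 in the limma fit of the whole table. ANKRD1, CYR61, CTGF, LATS2 and AMOTL2 were higher under the knockdown label and AJUBA was lower; over all 10823 rows tested 16.8% passed, 10.9% higher and 5.91% lower. The groups did not overlap for 7 genes, 5 higher and 2 lower, against 37.9% of all rows, 22.6% higher and 15.3% lower. The median log2 change of the 10 was 0.15, beside 0.02 over all rows tested. Ranked from the highest log2 change of all rows tested, ANKRD1 was 5th, CYR61 19th, CTGF 268th, LATS2 474th and AMOTL2 1241st. WWTR1 was 3404th, YAP1 5814th, TEAD1 7771st, AXL 9702nd and AJUBA 10476th. Because the genes were chosen with this contrast known, nothing is read from these counts and ranks. Of all calls 64.8% were higher as reported, 53.6% under median scaling, 50.3% under quantile normalization and 49.6% by voom. Without library 1 of the knockdown label the log2 changes were 1.02 for ANKRD1, 0.64 for CYR61, 0.38 for CTGF, 0.31 for LATS2, 0.18 for AMOTL2 and -0.22 for AJUBA. The sign of each of the 10 log2 changes was the same in every alternative in which it was fitted, except that of YAP1.

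**Figure D4:**
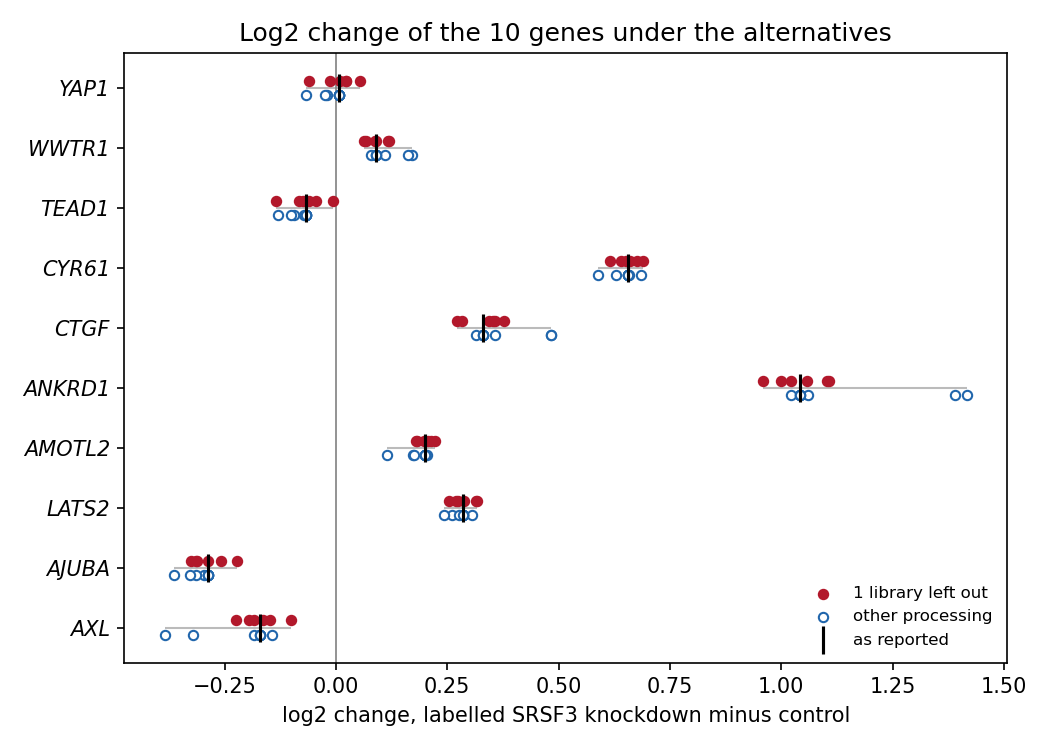
Log2 change of each of the 10 genes, libraries labelled SRSF3 knockdown minus control, as reported (black bar), with 1 library left out (filled points) and under other processing (open points). ANKRD1 lies between 0.96 and 1.42, CYR61 between 0.59 and 0.69, AJUBA between -0.36 and -0.22, and YAP1 spans 0.

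By level, AMOTL2 was the highest of the 10 in both groups. Under the knockdown label CYR61, YAP1, AJUBA and TEAD1 followed with ranges that overlapped from each to the next, then LATS2, ANKRD1, CTGF, and WWTR1 and AXL with overlapping ranges. In controls the order after AMOTL2 was AJUBA, YAP1, TEAD1, CYR61, LATS2, then ANKRD1 and CTGF with overlapping ranges, AXL and WWTR1. CYR61 thus stood directly below AMOTL2 under the knockdown label, with a range that overlapped that of YAP1, and below TEAD1 in controls.

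Of 29 kinases and upstream regulators 24 were tested, 2 rose and 2 fell by limma's adjusted p, with a median log2 change of -0.03. This share is near that of all rows tested, of which 16.8% passed, and is not a result about the list. SAV1, the scaffold of STK3 and STK4, rose to 19.0 ± 1.16 FPKM under the knockdown label, against 15.5 ± 0.280 FPKM in controls (log2 change 0.27, limma adjusted p = 0.00988). NF2 (merlin), the membrane-linked activator of LATS kinases, rose to 18.1 ± 1.52 FPKM, against 14.8 ± 0.523 FPKM in controls (log2 change 0.27, limma adjusted p = 0.0177). The NF2 call was lost with no filter (0.0570) and without library 2 of the knockdown label (0.0591) or control library 2 or 3 (0.0787 and 0.0663).

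AMOT, the angiomotin related to AMOTL2, fell to 0.926 ± 0.0599 FPKM under the knockdown label, against 1.31 ± 0.123 FPKM in controls (log2 change -0.26, limma adjusted p = 0.0256). The AMOT call was lost without library 1 or 2 of the knockdown label (adjusted p = 0.0562 and 0.0661) and without control library 1 or 3 (0.0855 and 0.107). AMOTL2 was 50.4 ± 4.80 times AMOT per length under the label and 30.9 ± 3.504 times in controls. LIMD1, a LIM protein of AJUBA's family, fell to 3.92 ± 0.134 FPKM, against 4.69 ± 0.196 FPKM in controls (log2 change -0.21, limma adjusted p = 0.0326). This call was lost with no filter (0.0676) and without any library except library 3 of the knockdown label (0.0599 to 0.129). AJUBA stood at 5.88 ± 0.396 times LIMD1 under the label and 6.04 ± 0.0891 times in controls.

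STK3 had a log2 change of -0.03 (limma adjusted p = 0.806) and STK4 of -0.05 (0.532). STRN, a scaffold of the phosphatase complex that acts on STK3 and STK4, had -0.23 (0.0522), the kinase gene TAOK1 -0.25 (0.0718) and WWC2 -0.18 (0.0804), none past the threshold. Voom on the recovered fragments called 8 genes of this list, 2 higher and 6 lower, with STRN, TAOK1 and WWC2 among the lower. Over all rows voom called 1954 of 10799, 969 higher and 985 lower. Leaving out library 1, 2 or 3 of the knockdown label gave 3, 1 and 10 calls on the list, beside 1641, 842 and 2742 over all rows. Leaving out control library 1, 2 or 3 gave 2, 2 and 1, beside 1079, 643 and 646 over all rows.

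Further YAP and TAZ targets were taken from a published target signature without the genes already described. Of 16 genes 12 were tested, 2 rose and 0 fell by limma's adjusted p (6 had an unadjusted p under 0.05), with a median log2 change of 0.09. Of all rows tested 16.8% passed, 10.9% higher and 5.91% lower, and 3575 of 10823 had an unadjusted p under 0.05, so the number called on this list is near the background. FJX1, a secreted regulator of growth, rose to 25.1 ± 1.51 FPKM under the knockdown label, against 17.4 ± 1.61 FPKM in controls (log2 change 0.51, limma adjusted p = 0.00162). NT5E (CD73), the surface enzyme that makes adenosine, rose to 76.1 ± 4.30 FPKM, against 59.3 ± 0.622 FPKM (log2 change 0.35, limma adjusted p = 0.00281). CRIM1, ARHGEF17, IGFBP3 and F3 (tissue factor) had log2 changes of 0.16, 0.16, 0.17 and 0.23 without passing (limma adjusted p = 0.0551, 0.0739, 0.0977 and 0.102). Both FJX1 and NT5E stayed past the threshold without library 1 of the knockdown label and under the other alternatives.

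AP-1 subunits and SRF, which act beside TEAD on many targets, were tested with actin genes in a list of 17. Of these 14 were tested, 5 rose and 0 fell by limma's adjusted p (9 had an unadjusted p under 0.05), with a median log2 change of 0.17. Over all rows tested 10.9% rose and 5.91% fell, 3575 of 10823 had an unadjusted p under 0.05, and the median log2 change was 0.02. The list was chosen with earlier results of these data known, so nothing is read from these counts. FOSL1, the AP-1 subunit FRA1, had 87.0, 77.7 and 71.0 FPKM under the knockdown label, against 50.4, 49.0 and 45.8 FPKM in controls (log2 change 0.68, limma adjusted p = 4.27e-04). JUN, its usual partner, had 28.5, 29.5 and 30.1 FPKM, against 21.0, 20.9 and 20.9 FPKM (log2 change 0.47, limma adjusted p = 2.73e-04). The groups did not overlap for either gene. TAGLN, an actin-binding protein and target of SRF, rose to 3.16 ± 0.246 FPKM under the label, against 1.61 ± 0.1901 FPKM in controls (log2 change 0.68, limma adjusted p = 5.42e-04). JUND rose by 0.28 (0.00828) and SRF by 0.24 (0.0106) on the log2 scale, and the SRF call was lost without control library 2 (0.0684) or 3 (0.0549). Without library 1, 2 or 3 of the knockdown label 5, 5 and 7 genes of this list passed, beside 1641, 842 and 2742 over all rows. Without control library 1, 2 or 3 it was 5, 4 and 4, beside 1079, 643 and 646 over all rows. The actin crosslinker FLNA had 0.23 (0.0565).

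**Figure D5:**
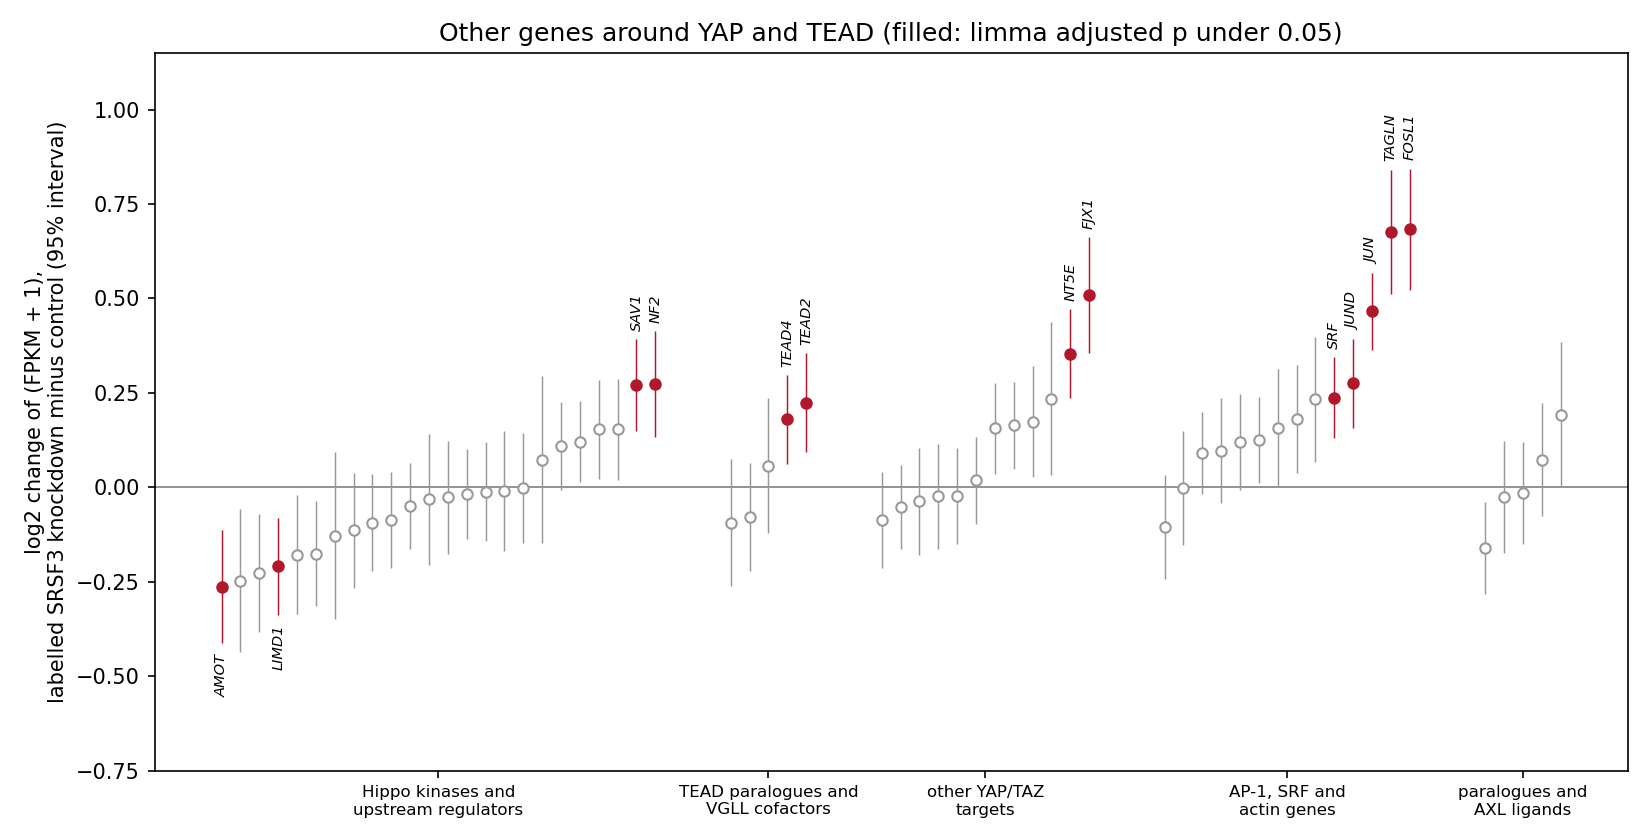
Log2 change with its 95% limma interval of the tested genes of the 5 lists around YAP and TEAD, libraries labelled SRSF3 knockdown minus control, sorted within each list; filled points passed an adjusted p of 0.05. The 5 called genes of the AP-1, SRF and actin list and the 2 called targets lie above 0, and the kinase and upstream list has called genes on both sides.

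Among paralogues of the targets and the ligands of AXL, 0 of 5 tested genes passed limma's threshold in either direction (2 had an unadjusted p under 0.05, and voom called 1), of 10 on the list, beside 16.8% of all rows. Over all rows 3575 of 10823 had an unadjusted p under 0.05, and voom called 1954 of 10799. GAS6, the main ligand of AXL, had 25.5 ± 1.30 FPKM under the knockdown label and 28.6 ± 1.29 FPKM in controls (log2 change -0.16, limma adjusted p = 0.0704). By voom the GAS6 change was -0.20 (adjusted p = 0.0257). The receptors related to AXL, MERTK and TYRO3, had log2 changes of 0.19 (0.151) and -0.03 (0.818), and the ligand gene PROS1 -0.02 (0.881). The muscle ankyrin repeat genes ANKRD2 and ANKRD23, related to ANKRD1, stood below 0.5 FPKM in both groups.

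For ANKRD1, CYR61 and CTGF the most similar profiles were sought among 8674 genes with a mean of at least 2 FPKM, by the root mean square difference of log2 values over the 6 libraries, each set to its control mean. For CYR61 these were MAP3K14 (0.0557), CHI3L1 (0.0630) and MVP (0.0654), and for CTGF they were MARS2 (0.0423), KREMEN2 (0.0428) and TRMT61A (0.0474). For ANKRD1 they were PPP4C (0.148), TERF2IP (0.185) and CYP26B1 (0.206). Nearness was taken on log2(FPKM + 1), which understates the change of low genes such as ANKRD1. The ratio of group means was 2.71 for ANKRD1, against 2.03, 1.89 and 1.91 for PPP4C, TERF2IP and CYP26B1. The FPKM of PPP4C and TERF2IP do not correspond to whole fragment numbers, unlike those of all 10 genes described here and of CYP26B1; how their values were made was not tested. CYP26B1, which breaks down retinoic acid, stood at 7.03 ± 0.297 FPKM under the knockdown label and 3.69 ± 0.175 FPKM in controls. It was picked for its likeness to ANKRD1, so this difference follows from the choice.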

How the data were processed

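Expression was measured by RNA-seq in 6 libraries of gemcitabine-resistant PANC-1 cells, 3 labelled SRSF3 knockdown and 3 control, grouped by their titles. The authors deposited FPKM per gene symbol in an mRNA and a lncRNA table. Per the submitters' processing notes the tools were edgeR, Cuffdiff, StringTie and HISAT2, with no role or version. Build, annotation and strandedness of counting: not given in the sources used here. Per the labels' protocols, polyadenylated RNA was selected, while lncRNA libraries were stranded and depleted of rRNA; which gave the values is not stated. Without known strand, reads of an overlapping antisense gene cannot be told apart.

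The deposited FPKM steps gave 1 total per library and 1 length per gene, and from these the fragments per gene, whole to within 0.003, in 14776 of 14803 mRNA rows that exceeded 0 in at least 3 libraries. At these depths 1 FPKM is 24.6 to 27.4 fragments per kilobase. Fragments are PCR products, so their numbers show only the counting part of the error, which is largest for low numbers. The fit was limma 3.58.1 in R 4.3.3 (eBayes with a trend, two-sided) on log2(FPKM + 1) over the 10823 rows averaging at least 0.5 FPKM, with Benjamini-Hochberg adjustment, threshold 0.05 and no rescaling. Fold changes on this scale understate the change of low genes. Fits and step search were tested on simulated data. LncRNA rows used log2(FPKM + 0.1) and a mean of at least 0.1 FPKM. Motifs were matched on both strands in RefSeq promoter windows (GRCh38.p14) with Python 3.11.15. Older symbols were matched through a RefSeq gene table.

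The 10 genes, the gene lists and the tests were chosen with earlier results of these data known. Named were the 10 genes, SRSF3, the TEAD genes, LATS1, STK3, STK4, NF2, up to 6 further genes per list with the smallest p, and 3 nearest profiles each for ANKRD1, CYR61 and CTGF; VGLL1, VGLL2, ANKRD2, ANKRD23 and marker genes are given for their levels. The alternatives tried were no filter, a filter of 5 FPKM, a pseudocount of 0.1, median scaling, quantile normalization, robust empirical Bayes, rows on the step grid only, voom with TMM factors on the recovered fragments, leaving out each library, and a block for the replicate number. Of 4 endothelial and 5 leukocyte markers, 0 and 1 reached 0.5 FPKM; the 1 was CD14. The endothelial sum was 0.160 to 0.277 FPKM under the knockdown label and 0.173 to 0.253 FPKM in controls. The leukocyte sum was 2.64 to 2.68 FPKM and 2.42 to 2.80 FPKM in the same groups.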

Additional observations from a re-analysis of the deposited data

How the results depend on the processing

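The count of all genes past the threshold was 1819 of 10823 tested as reported, 960 of 16315 with no filter and 1954 of 10799 by voom. With a mean of at least 5 FPKM it was 1666 of 6311. Under median scaling and quantile normalization the count was 1739 and 1625 of 10823. With 1 library left out it ranged from 643 to 2742. It was 842 and 2742 without libraries 2 and 3 of the knockdown label. Without control libraries 1, 2 and 3 it was 1079, 643 and 646. Of the 10 genes, chosen on this contrast, 6 passed as reported, 4 to 6 with 1 library left out, 4 with no filter and 5 under quantile normalization. Without library 1 of the knockdown label, which had the highest summed FPKM, 6 passed, beside 1641 of 10816 over all rows. Nothing is read from these counts of the 10. Of 5 tested genes of the TEAD and VGLL list, 2 passed as reported, 0 with no filter, 0 by voom and 0 to 2 with 1 library left out. Of the same 5, 1 passed under median scaling and 1 under quantile normalization. With a mean of at least 5 FPKM, 2 genes of this list were tested and 1 passed. Of the kinase and upstream list, 4 passed as reported, 2 with no filter, 8 by voom and 1 to 10 with 1 library left out. Of the paralogues and AXL ligands, 1 passed under median scaling, under quantile normalization and by voom, against 0 as reported. The YAP1 log2 change, 0.01 as reported, was -0.0200 under median scaling, -0.0661 under quantile normalization, -0.0239 by voom, and -0.0594 to 0.0542 with 1 library left out (lowest without library 3 of the knockdown label, and -0.0132 without control library 1). The cause was not tested. Outside the 10 genes, FJX1, NT5E, FOSL1, JUN, JUND, TAGLN and SAV1 stayed past the threshold in each alternative in which they were tested. TAGLN, ANKRD1, CTGF, WWTR1 and AXL have means below 5 FPKM and were not tested under that filter.

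Samples with the same number did not clearly deviate together: correlations of deviations from the group means were 0.078, 0.039 and 0.279, and library 2 of the knockdown label correlated best with control library 1 (0.153). The numbers are therefore not read as pairs. With a replicate block, 2323 genes passed, 4 of the other YAP targets, 7 of the kinase and upstream list and 6 of the 10 genes. Depth limits WWTR1, CTGF, ANKRD1 and AXL, with 72 to 253 fragments per library.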

Other observations

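TGFB2, a growth factor gene of the target signature named here after its values were seen, had a mean of 0.632 FPKM under the knockdown label and 0.319 FPKM in controls. It lay below the filter; with no filter its log2 change was 0.31 (limma adjusted p = 0.0418).

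Of the lncRNA rows, 3 are named for genes of this set, and 0 of them reached the mean of 0.1 FPKM needed for a test. WWTR1-AS1 was listed at 0, 0 and 0.0704 FPKM under the knockdown label, against 0.0313, 0 and 0.0281 FPKM in controls. LATS2-AS1 was above 0 in library 2 of the knockdown label (0.0635 FPKM) and WWTR1-IT1 in the same library (0.0890 FPKM); both were listed at 0 in the other libraries.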
